A study of Mus musculus with 30 samples.

Results

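Cholesterol and fatty acid synthesis genes were followed in RNA from 30 mouse lung tumours induced by K-RAS, a GTPase of the growth factor pathway. The set was chosen by symbol and holds 35 of the 23284 gene rows in the deposited table of normalized read counts. It comprises 16 sterol enzymes, 6 regulators and transport genes and 13 fatty acid enzymes. According to the labels the tumours came from 5 mice given NAC, 5 given vitamin E and 5 left untreated, with 2 tumours taken from each mouse. All the mice carried K-RAS-induced tumours, while the promoter or Cre that drove the oncogene, the strain and the age are not given in the sources used here. Each column of the table carries a letter (A, B or C), a digit from 1 to 5 and a digit 0 or 1, so that A1 is taken here as an animal and A10 and A11 as its tumours. No source used here says which letter stands for which treatment, and the letters are therefore used as letters and no difference below is assigned to a treatment.

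The sterol enzymes turn acetyl-CoA, by way of mevalonate and squalene, into cholesterol, and the fatty acid enzymes build, elongate and desaturate acyl chains. Both sets are controlled by the SREBP transcription factors, which Scap escorts out of the endoplasmic reticulum and the Insig proteins hold there when sterol is plentiful. In the lung, alveolar type 2 cells are known for making lipid for surfactant, and Sftpc, which encodes surfactant protein C, marks these cells. NF-Y, which binds the CCAAT box, is a known partner of the SREBPs at many of their target promoters.

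Promoter windows of 6 enzyme genes are shown because they belong to the closest pairs over the tumours (Mvd with Dhcr7 and with Cyp51, and Acly with Fasn) and to Acss2, the gene that ran most opposite to Mvd. The windows are from RefSeq (GRCm38.p6), run 5′ to 3′ on the gene's strand from 250 bases before to 50 bases after a transcription start, and carry each CCAAT box in capitals, read as CCAAT or as its reverse ATTGG. Overlapping boxes are capitalised as 1 run.

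Mvd, chr8:122443373-122443672, minus strand: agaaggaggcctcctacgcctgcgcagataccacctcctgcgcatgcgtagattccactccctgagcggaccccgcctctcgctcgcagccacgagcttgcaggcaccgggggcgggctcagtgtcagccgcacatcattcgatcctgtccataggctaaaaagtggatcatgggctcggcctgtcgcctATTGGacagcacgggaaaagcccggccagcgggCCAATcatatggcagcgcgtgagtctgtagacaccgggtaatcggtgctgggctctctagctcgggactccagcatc
Dhcr7, chr7:143829964-143830263, plus strand: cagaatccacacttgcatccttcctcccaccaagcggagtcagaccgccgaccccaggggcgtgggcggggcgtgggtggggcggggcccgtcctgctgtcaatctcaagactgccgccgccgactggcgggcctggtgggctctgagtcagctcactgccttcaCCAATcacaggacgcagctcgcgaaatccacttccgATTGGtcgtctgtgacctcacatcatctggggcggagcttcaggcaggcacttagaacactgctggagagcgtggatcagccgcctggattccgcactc
Cyp51, chr5:4104648-4104947, minus strand: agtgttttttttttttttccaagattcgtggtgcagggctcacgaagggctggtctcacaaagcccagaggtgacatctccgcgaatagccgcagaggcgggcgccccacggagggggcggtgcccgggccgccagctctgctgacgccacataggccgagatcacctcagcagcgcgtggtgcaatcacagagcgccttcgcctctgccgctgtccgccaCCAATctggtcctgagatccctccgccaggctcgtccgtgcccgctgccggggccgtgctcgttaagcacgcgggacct
Acly, chr11:100527951-100528250, minus strand: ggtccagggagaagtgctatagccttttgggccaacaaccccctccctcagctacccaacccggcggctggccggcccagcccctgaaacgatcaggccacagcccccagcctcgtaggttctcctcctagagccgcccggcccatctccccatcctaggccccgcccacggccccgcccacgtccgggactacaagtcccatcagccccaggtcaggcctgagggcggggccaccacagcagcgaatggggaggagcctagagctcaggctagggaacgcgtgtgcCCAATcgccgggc
Fasn, chr11:120824498-120824797, minus strand: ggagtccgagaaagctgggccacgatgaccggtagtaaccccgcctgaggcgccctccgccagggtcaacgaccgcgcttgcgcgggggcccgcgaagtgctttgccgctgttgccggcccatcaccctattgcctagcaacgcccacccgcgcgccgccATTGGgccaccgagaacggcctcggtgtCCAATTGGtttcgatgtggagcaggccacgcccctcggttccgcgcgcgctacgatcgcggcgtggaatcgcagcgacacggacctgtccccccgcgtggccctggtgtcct
Acss2, chr2:155517793-155518092, plus strand: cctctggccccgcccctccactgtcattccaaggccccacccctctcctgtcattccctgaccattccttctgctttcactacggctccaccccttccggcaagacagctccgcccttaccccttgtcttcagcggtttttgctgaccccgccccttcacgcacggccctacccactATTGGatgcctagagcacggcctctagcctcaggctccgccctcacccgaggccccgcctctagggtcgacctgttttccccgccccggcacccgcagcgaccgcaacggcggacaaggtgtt

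The Mvd window held 2 CCAAT boxes, the Fasn window 3 and the Cyp51, Acly and Acss2 windows 1 each. Dhcr7 has 3 RefSeq windows, of which the one shown held 2 boxes and the other windows held 0. The box in the Acly window lies 37 bases after the start, whereas those of the other windows shown lie before it. Windows were found for 28 of the 35 genes, and 23 of these 28 genes (82.1%) held the box in at least 1 window, against 41.1% of the 27025 genes with a window. Fdps, Fdft1, Sqle, Stard4, Scd1, Scd2 and Fads1 had no window and could not be searched. The 27025 genes were not limited to those with RNA in these tumours. The GC box GGGCGG, searched on both strands, was in 22 of the 28 genes (78.6%), against 38.2% of all genes. The E-box CACGTG was in 6 of them (21.4%), against 8.09% of all genes. The sterol regulatory element core TCACNCCAC was in 1 gene, Hmgcs1 (3.57%), against 1.44% of all genes. These are letter matches and no evidence of binding. Acss2 and Ebp, whose levels ran opposite to those of most members, held the CCAAT box too.

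Of the 35 members, 34 had a mean normalized count of at least 10 and were tested. The exception was Hmgcs1, which encodes cytosolic HMG-CoA synthase and is listed at 0 in all 30 columns. Divided by exon length, the members with the highest median normalized counts per kilobase were Scd1, the stearoyl-CoA desaturase (22791), Elovl1, an elongase of very long chains (11758), Scd2 (3647), Elovl5 (3112) and Fasn, the fatty acid synthase (2261). The most abundant sterol enzyme on this scale was Pmvk, the phosphomevalonate kinase, at 1223, followed by Ebp, the sterol isomerase, at 797. Among the regulators, Srebf1 stood at 855, Srebf2 at 592, Insig1 at 586, Insig2 at 470 and Scap at 256 normalized counts per kilobase. The lowest levels of tested members were those of Elovl6 (16.4) and Acacb (25.5). In bulk tumour RNA a lower level can come from fewer cells of a type or from less RNA per cell, and these cannot be told apart.

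The recovered read totals were 18322631 to 24408946 reads per tumour (median 21596540), so that every tested member rested on at least 2924 reads over the 30 tumours. All 8 alveolar type 2 markers were above 0 in every tumour. Their summed normalized count was lowest at 1344473 (tumour A11), with a median of 1987262 in letter A, 2864882 in letter B and 2940412 in letter C. The club cell marker sum ran the other way, with medians of 2643621 in letter A, 1182700 in letter B and 905549 in letter C. Tumour A11 stood apart, with an adipocyte marker sum of 12256 against at most 1508 in any other tumour of letter A, and with heart muscle Myh6 at 24675. Tumours C11 and C21 held striated muscle markers, whose sum reached 53537 in C21. The index sequences in the column headers repeat in 3 cycles of 12, and letters A and C share no cycle.

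Fatty acid and sterol enzymes were lower in the tumours of letter A than in those of letter C. Between these letters 18 of the 34 members passed the test, 16 lower and 2 higher in letter A, while 44.8% of all 14539 genes tested passed it (22.9% higher and 21.9% lower). The median log2 difference was -0.24 over the members and 0.00 over all genes. By list, 8 of 15 sterol enzymes were lower and 1 higher, with a median of -0.39. Of the 13 fatty acid enzymes 7 were lower and 1 higher, with a median of -0.41, and of the 6 regulators and transport genes only Stard4 passed, with a median of -0.06 for that list. The test was limma on animal means of log2(value + 1), with Benjamini-Hochberg adjustment over all genes tested and a threshold of 0.05.

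The largest difference was that of Scd1. Its normalized counts ran from 56832 through a median of 68633 to 102193 in letter A and from 137729 through 157435 to 258485 in letter C. The highest tumour of letter A, A11, lay below the lowest of letter C, so the groups did not overlap. Overlap was determined for the members only, so no share over all genes is given beside it here or below. The animal means of log2(value + 1) were 16.10 ± 0.23 in letter A and 17.38 ± 0.35 in letter C (SD, n = 5 animals each). The log2 difference was -1.27 ± 0.18 (SE, limma, adjusted p = 0.00022).

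Fasn had 10133 to 20673 normalized counts (median 12411) in letter A and 20900 to 28658 (median 23492) in letter C. The letters did not overlap, although the highest tumour of letter A, A30, came close to the lowest of letter C, C31. The log2 difference was -0.79 ± 0.14 (SE, limma, adjusted p = 0.00072). Acly, the ATP citrate lyase that supplies cytosolic acetyl-CoA, had 3969 to 5726 (median 4565) in letter A and 6653 to 8956 (median 7361) in letter C. All tumours of letter A were below all of letter C, with a log2 difference of -0.68 ± 0.09 (SE, limma, adjusted p = 0.00012). Acss2, which makes acetyl-CoA from acetate, was instead higher. It had 1075 to 1865 normalized counts (median 1367) in letter A and 777 to 1117 (median 886) in letter C. Single tumours overlapped and the animal means did not, with a log2 difference of 0.62 ± 0.10 (SE, limma, adjusted p = 0.00042).

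The other fatty acid enzymes that passed were lower in letter A. They were Elovl1 (log2 difference -0.64), Fads2, the delta-6 desaturase (-0.49), Acaca, the cytosolic acetyl-CoA carboxylase (-0.47), and Acsl4, which activates arachidonate (-0.41). Of these, only Fads2 had animal means that did not overlap between the letters. Acaca passed narrowly (limma, adjusted p = 0.047). Scd2 (-0.22), Fads1 (-0.21), Elovl5 (-0.04), Acacb (0.02) and Elovl6 (0.00) did not pass. Without tumour A11, in which both are high, Acacb was at -0.21 and Elovl6 at -0.29, and neither passed.

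**Figure D1:**
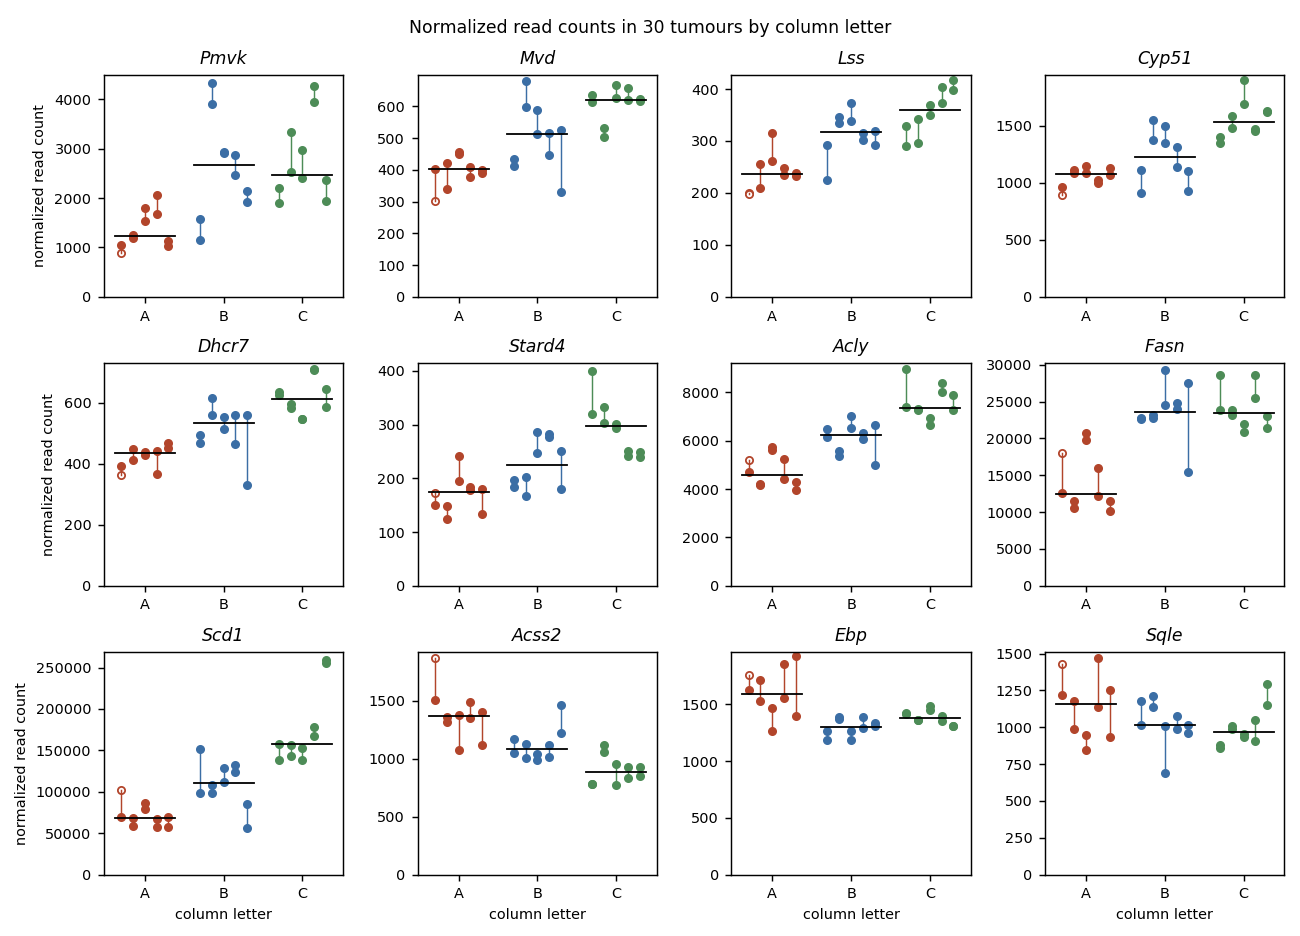
Normalized read counts (vertical axes, from 0) of 12 members in each tumour, by column letter; lines join the 2 tumours of an animal, black bars are medians over 10 tumours and the open circle is tumour A11. Scd1, Fasn, Acly, Mvd, Cyp51 and Dhcr7 show no overlap between letters A and C, while Acss2 and Ebp lie higher in letter A. Overlap was not determined over all genes.

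Among the sterol enzymes, Mvd, the mevalonate diphosphate decarboxylase, had 302 to 457 normalized counts (median 402) in letter A and 503 to 668 (median 621) in letter C. The letters did not overlap, and the log2 difference was -0.63 ± 0.11 (SE, limma, adjusted p = 0.00063). Cyp51, the lanosterol demethylase, had 891 to 1149 (median 1076) in letter A and 1348 to 1898 (median 1532) in letter C, again without overlap. Its log2 difference was -0.56 ± 0.11 (SE, limma, adjusted p = 0.00098). Dhcr7, which carries out the last reduction to cholesterol, had 365 to 468 (median 434) in letter A and 546 to 711 (median 612) in letter C. The groups did not overlap and the log2 difference was -0.55 ± 0.09 (SE, limma, adjusted p = 0.00032).

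Pmvk was spread widely within letters, with 882 to 2057 normalized counts (median 1229) in letter A and 1902 to 4260 (median 2465) in letter C. Its single tumours overlapped and its animal means did not, with a log2 difference of -1.03 ± 0.27 (SE, limma, adjusted p = 0.0066). Lss, the lanosterol synthase (-0.58), Idi1, the isopentenyl diphosphate isomerase (-0.44), Fdps, the farnesyl diphosphate synthase (-0.44), and Hsd17b7, a sterol ketoreductase (-0.39), were lower in letter A as well. Ebp alone among the sterol enzymes was higher, with 1264 to 1924 (median 1592) in letter A and 1307 to 1489 (median 1378) in letter C. Tumours A30, A31 and A50 lay within or below the range of letter C and the other 7 above it, and the log2 difference was 0.21 ± 0.06 (SE, limma, adjusted p = 0.013). Sqle, the squalene epoxidase and a rate-limiting step of the pathway, did not pass. It had 848 to 1471 (median 1158) in letter A and 862 to 1293 (median 970) in letter C, with a log2 difference of 0.18 (95% interval -0.07 to 0.42). Mvk, Fdft1, Tm7sf2, Nsdhl and Sc5d, with differences of -0.27 to 0.17, did not pass either.

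Stard4, a sterol transfer protein, had 125 to 242 normalized counts (median 175) in letter A and 240 to 400 (median 297) in letter C. Only tumour A30 reached the range of letter C, and the log2 difference was -0.78 ± 0.15 (SE, limma, adjusted p = 0.0011). The members that encode the SREBPs, Scap and the Insig proteins did not pass. Srebf1 had medians of 3509 in letter A and 3465 in letter C, with a log2 difference of -0.02 (95% interval -0.23 to 0.18). Srebf2 had medians of 2940 and 3052 in those letters, with a log2 difference of -0.10 (95% interval -0.25 to 0.05). The differences were -0.10 for Scap, 0.12 for Insig1 and 0.11 for Insig2. These intervals bound the differences in transcript level and do not bear on the processing of the SREBP proteins, which was not measured.

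Fewer members passed in the contrasts with letter B. In letter A over letter B 7 of 34 passed (6 lower and 1 higher), against 15.2% of all genes (6.47% lower and 8.77% higher). The members' median was -0.18, and that of all genes 0.00. Those lower in letter A were Pmvk (-0.89), Fasn (-0.76), Scd1 (-0.59), Lss (-0.39), Acly (-0.37) and Dhcr7 (-0.27), and Ebp was higher (0.30). Fasn was the only member whose animal means did not overlap, and no member's single tumours were separate. The share of all genes without overlap was not determined. For Fasn the tumours of letter B had 15404 to 29243 normalized counts (median 23635), and the log2 difference was -0.76 ± 0.14 (SE, limma, adjusted p = 0.016). The count depended on single animals: it was 0 without animal A5, 2 without B3, 3 without A1, A2, A4, B2 or B4 in turn, 11 without B5 and 12 without A3. The count over all genes swung with it: 0.296% passed without A5, 2.63% without B3, 4.15% to 9.14% without A1, A2, A4, B2 or B4 in turn, 18.7% without B5 and 23.6% without A3.

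In letter B over letter C 5 of 34 passed (4 lower and 1 higher), against 16.9% of all genes (8.7% lower and 8.24% higher), a share close to the background. Scd1 (-0.68), Cyp51 (-0.36), Acly (-0.32) and Dhcr7 (-0.28) were lower in letter B, and Acss2 was higher (0.32). Scd1 had 56261 to 151348 normalized counts (median 110128) in letter B. Those tumours overlapped the ones of letter C. The animal means of Scd1, Acly and Elovl6 did not overlap between these letters, although Elovl6 did not pass. For Scd1 the log2 difference was -0.68 ± 0.18 (SE, limma, adjusted p = 0.022). The count was 1 without animal B5, 2 without B1, B4 or C4 in turn and 3 without C1 or C3 in turn, while 10.4% to 13.9% of all genes passed in these fits. With quantile normalization it was 2, with 1 lower and 1 higher. All members called in these contrasts were among the 18 called between letters A and C, so 16 tested members passed in no contrast. The 3 contrasts share samples, and their values are given side by side only.

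**Figure D2:**
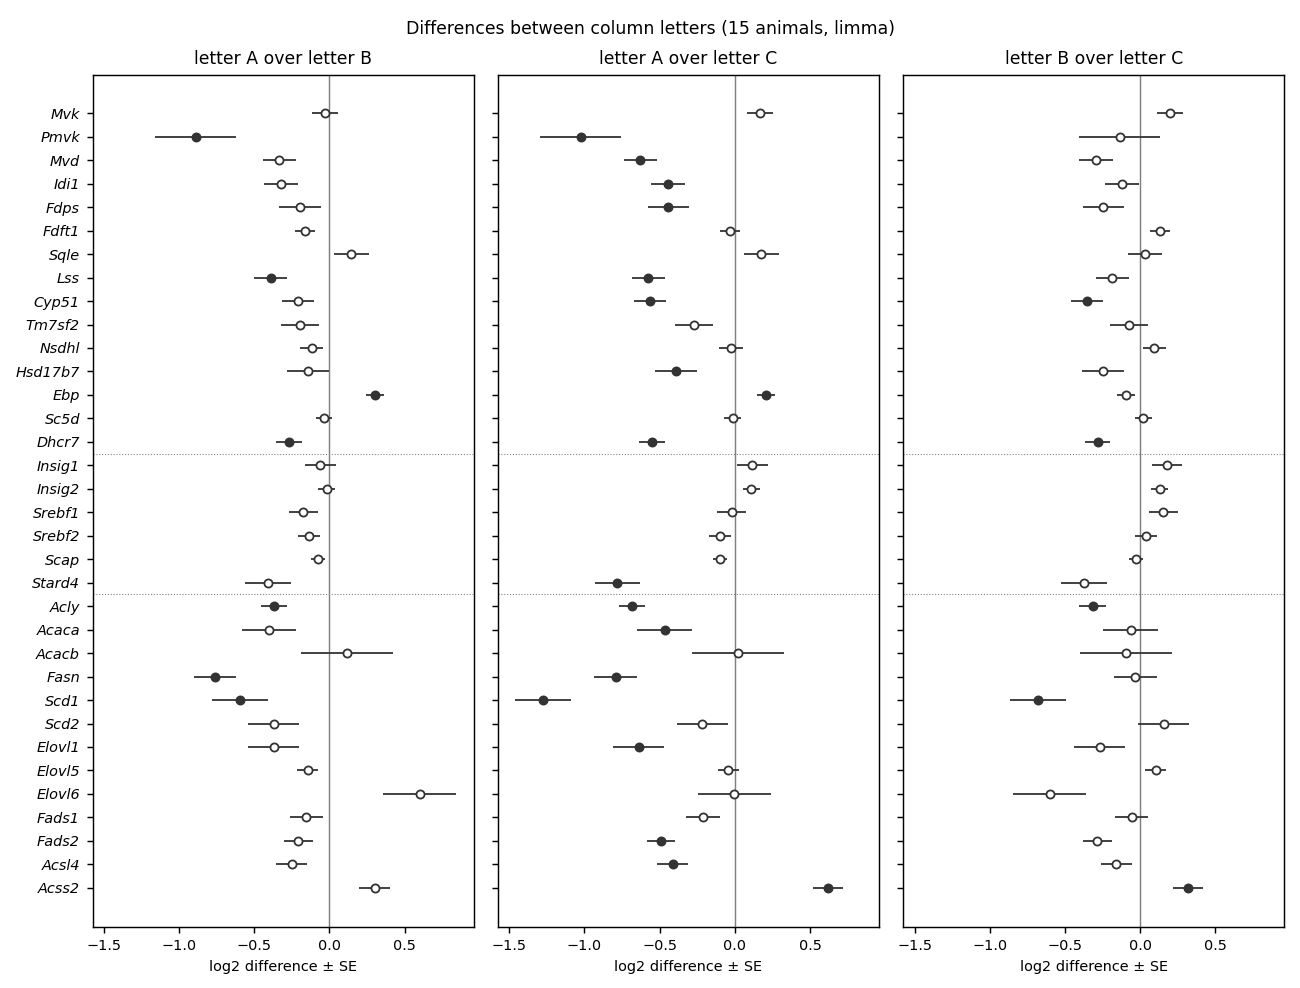
Log2 differences (horizontal axes, ± SE, limma on 15 animals) of the 34 tested members in letter A over B, A over C and B over C; filled points have an adjusted p under 0.05, and dotted lines part sterol enzymes, regulators and transport genes, and fatty acid enzymes from top to bottom. Scd1 has the lowest difference in letter A over C (-1.27) and Acss2 the highest (0.62).

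The place of a library in the index cycles moved with the letters. Letter A lies wholly in the first cycle and letter C in the second and the third, so the cycle and the letter cannot be told apart between A and C, and only animal B1 links letter B to the first. With the cycle as a term, 0 members passed in letter A over B, 1 in A over C (Acly, log2 difference -0.78) and 1 in B over C (Insig1, 0.39), against 0.997%, 5.22% and 10.3% of all genes in that order. Of the 18 members called in A over C, 7 had differences more than 1.5 times smaller under that term, and all 7 were sterol enzymes. Such shifts were not counted over all genes, so the 7 have no background, and the contrast between the lists was not tested. Cyp51 was at -0.14, Mvd at -0.25, Lss at -0.05, Hsd17b7 at -0.04 and Fdps at -0.02, while Pmvk turned to 0.18 and Idi1 to 0.01. The difference was -0.45 for Dhcr7 and 0.30 for Ebp, the other sterol enzymes called, and -0.70 for Stard4. The 8 fatty acid enzymes kept their sign, for example Scd1 at -1.33 ± 0.41 (SE, limma, adjusted p = 0.077) and Fasn at -0.79, and Elovl1 (-0.99) and Acaca (-0.72) were more than 1.5 times larger. The errors under that term were wide, since the comparison rests on the link through B1. The headers do not say whether the cycles were separate runs or pools.

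Cell type markers also differed between the letters. In letter A over C all 8 alveolar type 2 markers were lower, with a median log2 difference of -0.49, and 0 of 8 passed in letter B over C. Of the 4 club cell markers 3 were higher in letter A over C (median 1.12), as were 3 of 4 ciliated markers (median 0.91) and 5 of 5 lymphocyte markers (median 1.59). Of 5 tested adipocyte markers 3 were higher in A over C (median 2.01) and 3 in A over B (median 2.59), and of 4 endothelial markers 3 were higher in A over C (median 0.52). The adipocyte gene Adipoq had log2 levels of 8.43, 6.73 and 5.93 in animals A1, A5 and A4, against at most 3.25 in any other animal, so it was not high in A11 alone. Of 6 macrophage markers 5 were lower (median -0.66). Their part in the differences of the members was not tested.

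Genes around the pathway gave further values. Among 12 genes of surfactant and its lipid, 8 of which are the alveolar type 2 markers, 11 were lower in letter A over C, 8 were lower in A over B and 0 passed in B over C. Of 7 genes of the LXR sterol sensor and of cholesterol efflux, 3 were lower in A over C, namely the cholesterol acyltransferase Soat1 (-0.85), the efflux pump Abcg1 (-0.82) and the lysophospholipid acyltransferase Lpcat3 (-0.54). The ubiquitin ligase Mylip (0.63) and the efflux pump Abca1 (0.40) were higher. Of 11 tested other sterol genes 3 were lower in A over C, among them the lysosomal cholesterol exporters Npc2 (-0.54) and Npc1 (-0.44). Of 16 tested other fatty acid genes 6 were lower in A over C, for example the elongase Elovl7 (-0.58) and the malic enzyme Me1 (-0.44), and 4 were higher. Regulators of lipid synthesis were among both, with Thrsp (1.58) and Mlxipl (1.03) higher and Mid1ip1 (-0.45) lower. The acyl-CoA synthetase Acsl1 was higher by 1.49 in A over C and by 0.87 in A over B, and the part of the adipocyte markers in this was not tested. Of 8 genes listed under fatty acid oxidation 1 was higher (Acadvl, 0.22) and 1 lower in A over C. The lower one was Pparg (-0.50), which encodes a transcription factor and not an oxidation enzyme.

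Sister tumours of an animal resembled each other in the level of many members. A difference between animals of the same letter passed the moderated F test of limma for 16 of 34 members, against 26.2% of all genes. The median intraclass correlation, the share of variance within letters that lies between animals, was 0.49 over the members and 0.36 over all genes. It was highest for Pmvk (0.87), Acaca (0.76), Cyp51 (0.73) and Insig1 (0.71). It was lowest for Scap (0.01), Elovl6 (0.03), Ebp (0.16) and Dhcr7 (0.18). Pmvk shows the pattern: tumours B20 and B21 had 4325 and 3905 normalized counts, while B10 and B11 had 1159 and 1578. Animals B1 and B2 lie in different index cycles, while B50 and B51, of the same cycle as B2, had 1912 and 2133. Sister tumours always share a cycle, and the cycles differ within letters B and C. The test held no cycle term, so part of the animal effect cannot be told apart from the cycle in those letters. Scap had 927 and 1018 in A20 and A21, and 1097 and 952 in A30 and A31, so sisters differed as much as animals did. For Scap the SD between animals was 0.01 and that within animals 0.09 on the log2 scale, against 0.46 and 0.18 for Pmvk. Without animal C5 the count of members with an animal effect was 8. The share of all genes was not counted in that fit, so the drop cannot be set against a background.

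**Figure D3:**
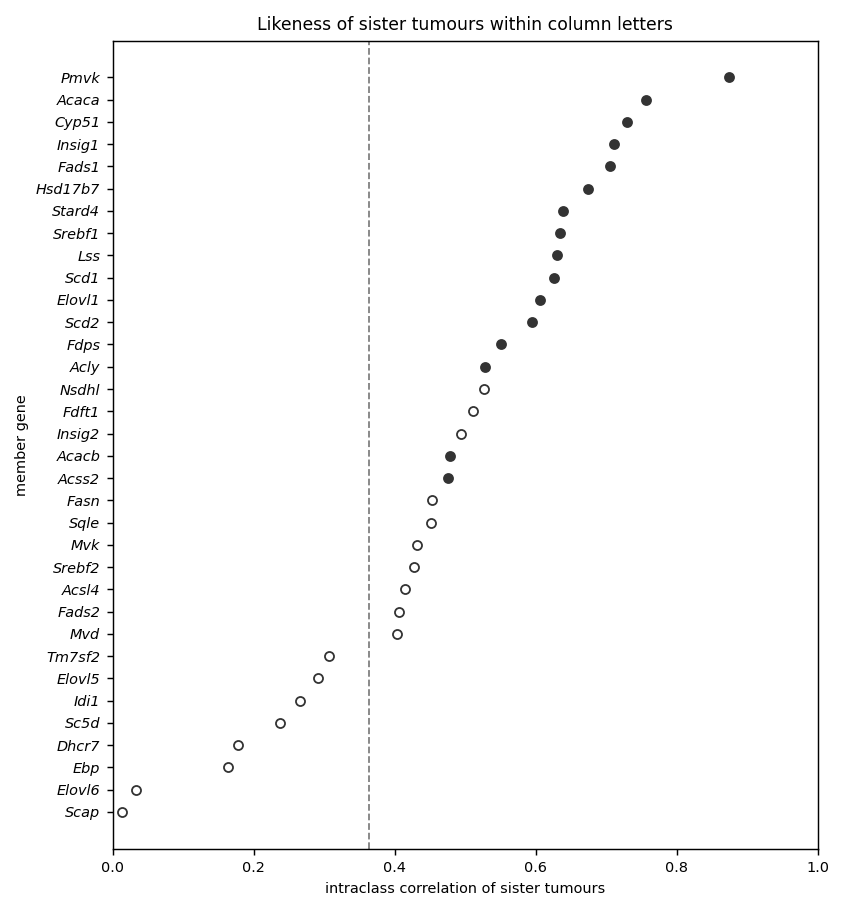
Intraclass correlation of the 2 tumours of an animal within column letters (horizontal axis) for the 34 tested members; filled points have an adjusted p under 0.05 for the animal effect and the dashed line is the median over all genes tested. Pmvk (0.87) is at the top and Scap (0.01) at the bottom.

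Elovl6, a long-chain elongase, and Acacb, the mitochondrial acetyl-CoA carboxylase, were spread by tumour A11. Elovl6 had 736 normalized counts in A11, against 97.9 in its sister A10 and at most 170 in any other tumour. Acacb had 1286 in A11, against 264 in A10 and at most 468 elsewhere. A11 is the tumour with the adipocyte and heart muscle markers, and their part in these values was not tested. Without A11 the log2 difference of Elovl6 was 0.31 in letter A over B and -0.29 in A over C, against 0.60 and 0.00 with it, and neither passed in either case. In letter B over C, a difference of -0.60 that A11 cannot move, the adjusted p was 0.0084 (limma) without A11 and 0.099 with it, as the shared estimate of the spread was smaller. Without A11 the difference of Acacb was -0.11 in A over B and -0.21 in A over C, against 0.11 and 0.02 with it. Over the 30 tumours the SD of log2 values was widest for Pmvk (0.65), Elovl6 (0.63), Scd1 (0.62) and Acacb (0.59). It was narrowest for Sc5d (0.10), Scap (0.10), Insig2 (0.11) and Fdft1 (0.14).

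Of the 34 tested members 18 followed Sftpc over the animals by Pearson's r. The animals fell on both sides of a gap in Sftpc: A1, A2, A4, A5 and B5 lay at log2 levels of 20.08 to 20.36 and the other 10 animals at 20.63 to 20.86. Over the 15 animal means, these 18 passed a two-sided permutation test of Pearson's r (100000 resamples, adjusted over all 14538 other genes), 16 with a positive and 2 with a negative sign. Over all genes 16.5% passed with a positive and 18.6% with a negative sign, 35.1% in all. The median r was 0.54 over the members and 0.02 over all genes. Because the gap divides the animals, these values describe mainly the difference between its sides. By Spearman's rho, with the same permutation test and adjustment, Lss, Mvd, Pmvk, Cyp51, Idi1, Fdps and Fads2 of these 18 did not pass. Their adjusted p-values by that test were 0.054 to 0.12. The share of all genes that passed by rho was not counted.

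The highest r was that of Acsl4, at 0.88 (permutation p = 4e-05, adjusted 0.0011), with a Spearman rho of 0.80 (permutation p = 0.00064). Fasn had an r of 0.86 and a rho of 0.74, Elovl1 an r of 0.86 and a rho of 0.85, and Scd1 an r of 0.82 and a rho of 0.78. The lowest were Acss2 with an r of -0.83 and a rho of -0.69, and Ebp with an r of -0.82 and a rho of -0.68. Sqle (-0.49) and Elovl6 (-0.47) had the next lowest r and did not pass. Without animals A1 and A4, which are farthest from the median of Sftpc, 10 members passed, 9 positive and 1 negative, against 19.3% of all genes (8.11% positive and 11.2% negative), and r was 0.85 for Acsl4, 0.88 for Fasn and -0.71 for Acss2. With letter means removed and permutation within letters, 0 members and 0 of all genes passed, while 7 members (20.6%) and 2073 genes (14.3%) had an unadjusted p under 0.05. Each letter holds 5 animals, too few for an r of its own. Among the 10 animals above the gap 0 members and 0 of all genes passed, with 2 members (5.88%) and 477 genes (3.28%) at an unadjusted p under 0.05. There the median r was 0.18 over the members and 0.00 over all genes.

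**Figure D4:**
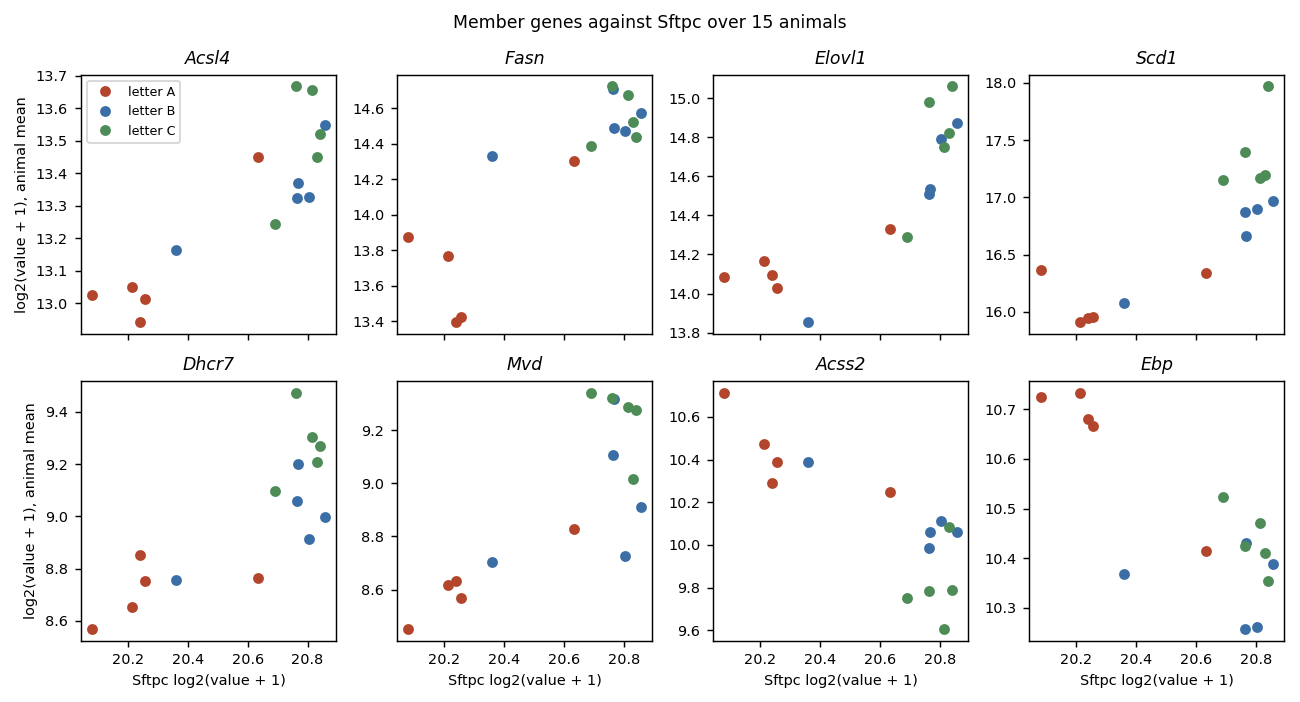
Animal means of log2(value + 1) of 8 members (vertical axes) against those of Sftpc (horizontal axes) for 15 animals coloured by letter. Animals A1, A2, A4, A5 and B5 lie at the left, below 20.4, and Acss2 and Ebp slope down where the other members slope up.

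Animals A3 and B5 departed from the others of their letter in Sftpc and in many members. A3 had an Sftpc log2 level of 20.63, against 20.08 to 20.26 in the other animals of letter A. In A3, 14 of 34 members lay above the range of the other 4 animals, 6 below it and 14 within it. The 20 outside the range (58.8%) compare with 55.5% of all genes, of which 28% lay above and 27.6% below. Fasn was at 14.31 in A3, against 13.40 to 13.88 in the others, and Ebp at 10.41, against 10.67 to 10.73. B5 had an Sftpc level of 20.36, against 20.76 to 20.86 in the other animals of letter B. In B5, 14 members lay below the range of the others, 2 above it and 18 within it. The 16 outside the range (47.1%) compare with 46.6% of all genes, of which 23.6% lay below and 23% above. Counting both directions, the members left the range about as often as all genes did in both animals. By direction the members were uneven, with 14 above and 6 below in A3, and 14 below and 2 above in B5. All genes were nearly even in direction in both animals, and the skew of the members was not tested. Acaca was at 9.98 in B5, against 10.67 to 10.80, Scd1 at 16.08, against 16.66 to 16.97, and Acss2 at 10.39, against 9.99 to 10.11. The club cell gene Scgb1a1 was at 20.31 in A3, against 20.83 to 21.54, and at 20.74 in B5, against 19.37 to 20.14. Sftpc and Scgb1a1 had an r of -0.89 over the 15 animals, and the part of either cell type in these values was not tested. These animals were picked out after their values were seen.

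Differences between sister tumours hold letter, animal and cycle constant. Over the 15 sister differences 2 of 34 members passed the permutation test by sign flips, 1 positive and 1 negative, against 7.24% of all genes (4.27% positive and 2.97% negative). Elovl1 had an uncentred r of 0.85 with the Sftpc difference (adjusted p = 0.017) and Acacb one of -0.86 (adjusted p = 0.041). Both values drew on animal A1, whose tumour A11 had the lowest Sftpc of all 30 (810581 normalized counts). Without that animal r was 0.73 for Elovl1 and -0.51 for Acacb, and 0 members and 0 genes passed. An unadjusted p under 0.05 was reached by 7 members (20.6%) and by 20.8% of all genes, so the members' share is that of the background. Fasn had an r of 0.08 with animal A1 and of 0.84 without it (adjusted p = 0.079 by the same permutation test).

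Members moved together over the tumours. Over 30 tumours the median pairwise Pearson r of log2(value + 1) was 0.37 among the 105 pairs of sterol enzymes, 0.32 among the 78 pairs of fatty acid enzymes and 0.33 over the 195 pairs between the lists, against 0.00 over pairs of all genes. With letter means removed the medians were 0.41, 0.21 and 0.14 in that order. Tumours share animals, letters and library scaling, so these are descriptions with no test. The closest pairs were Mvd with Dhcr7 (r = 0.90), Acly with Fasn (0.90), Mvd with Cyp51 (0.89) and Acly with Scd1 (0.88). With letter means removed the same pairs had 0.75, 0.91, 0.73 and 0.52. The windows printed above belong to 5 of these 6 genes.

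The pair that ran most opposite was Mvd with Acss2, at -0.86 over the 30 tumours and -0.63 with letter means removed. Within the sterol list, Ebp and Sqle stood off, with median r of -0.31 and -0.02 to the other sterol enzymes, against 0.60 for Fdps and 0.59 for Cyp51. Sqle was closest to Ebp (0.54). Srebf1 and Srebf2 had an r of 0.76 with each other, and their median r with the sterol enzymes was 0.14 and 0.27. Insig1 had a median r of 0.13 with the sterol enzymes, and 0.46 with letter means removed. Outside the set, the genes closest to the mean standardised level of the sterol enzymes included Sc4mol, the sterol methyl oxidase of the same pathway (r = 0.81), Riok3 (0.79) and Klhdc4 (0.79).

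**Figure D5:**
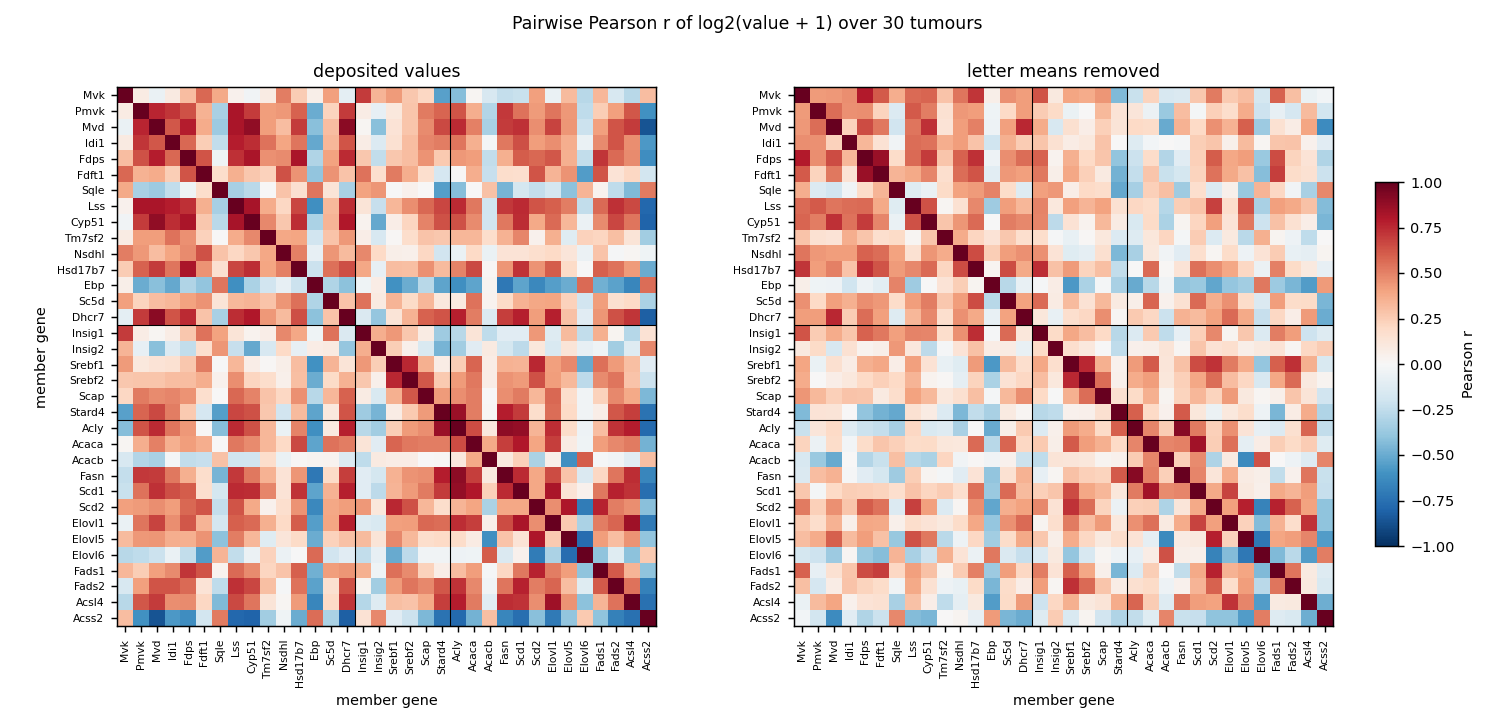
Pearson r of log2(value + 1) over 30 tumours between the 34 tested members, from deposited values (left) and with letter means removed (right); black lines part sterol enzymes, regulators and transport genes, and fatty acid enzymes. Acss2 and Ebp show negative r with most members on the left, down to -0.86 for Acss2 with Mvd.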

How the data were processed

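Libraries were TruSeq RNA v2, per the labels' protocols. TopHat 1.3.3, HTSeq, DESeq 1.14.0 and the build mm9 are listed in the submitters' processing notes. Annotation and strand setting are not given in the sources used here. The authors deposited normalized read counts (a signal per gene, counts divided by a size factor); 100% of values were whole multiples of a column's step (tolerance 0.01), which gave the reads used by the count tests. None of the 30 columns could be assigned to a sample, so columns were grouped by letter and animal.

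Values were taken as log2(value + 1), and genes with a mean of at least 10 were tested (14539; 8745 were not). Letters were compared with limma 3.58.1 (R 4.3.3) on animal means, and animals within letters with its moderated F test. Relations to Sftpc used permutation tests in Python 3.11.15. Alternatives included edgeR 4.0.16, DESeq2 1.42.0, other pseudocounts, filters and scalings. Procedures were tested on simulated data. Exon lengths are GENCODE exon unions (GRCm38). The tumours are separate samples per the labels, and the letters and digits are read as groups and animals from the column names only, so the p-values rest on that reading.

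Named genes are members called in a contrast, those with extreme differences, Sftpc relations, intraclass correlations or spreads, and set regulators. Genes outside the set come from gene lists, and A3 and B5 were named after their values were seen. The members and lists were chosen with earlier results of these data known. Some items are not reported here.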

Additional observations from a re-analysis of the deposited data

Results flagged for a closer look

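In 11 of 102 groups of 5 animal means (34 members in 3 letters) 1 animal lay far from the others of its letter by Dixon's criterion, which chance meets in about 1 of 20 groups. Levels are log2(value + 1). In letter A, animal A1 was low in Fdps (7.85, others 8.08 to 8.17) and Sc5d (9.37, others 9.46 to 9.48) and high in Acacb (9.19, others 7.37 to 7.86). A1 includes tumour A11, and the part of its adipocyte and muscle markers was not tested. Animal A3 was low in Ebp (10.41, others 10.67 to 10.73) and high in Acsl4 (13.45, others 12.94 to 13.05). In letter B, animal B5 was low in Acaca (9.98, others 10.67 to 10.80). In letter C, animal C1 was low in Idi1 (7.21, others 7.53 to 7.64) and Tm7sf2 (6.42, others 6.77 to 6.82), and C2 was low in Mvd (9.02, others 9.28 to 9.34). Animal C5 was high in Srebf1 (12.22, others 11.67 to 11.80) and Sc5d (9.61, others 9.40 to 9.44).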

How the results depend on the processing

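No paired analysis was possible between the letters because the columns carry no sample and the replicate numbers are in accession order, so no animal of 1 letter belongs with 1 of another. The 18 members called in letter A over C ranged from 16 to 19 over the leave-one-out fits, and 17 to 19 passed under the other settings tried except the index cycle term, which left 1. In letter A over B, 7 members passed, against 4 with no filter on low values, 11 with quantile normalization, 12 with DESeq2, 8 with edgeR, 0 with the index cycle as a term and 0 to 12 over the leave-one-out fits. In letter B over C, 5 passed, against 2 with quantile normalization, 1 with the index cycle as a term and 1 to 6 over the leave-one-out fits. Over the leave-one-out fits 0.296% to 23.6% of all genes passed in A over B, 37.9% to 46.2% in A over C and 10.4% to 19.6% in B over C. With quantile normalization 2298 genes passed in A over B and 2003 in B over C, against 2216 and 2463 without it. Counts over all genes for the other settings with edgeR, DESeq2 or no filter are not given here. Over all genes the split in letter A over B was 1275 higher and 941 lower, and 1093 higher and 1205 lower with quantile normalization. The index cycle term, chosen after seeing the data like the settings without A11, C11 and C21, turned Pmvk to 0.18 and Idi1 to 0.00984 in letter A over C, the only 2 sign changes. It also made 5 other called sterol enzymes more than 1.5 times smaller, with Lss at -0.05, Fdps at -0.02, Hsd17b7 at -0.04, Cyp51 at -0.14 and Mvd at -0.25. Shifts of this size were not counted over all genes. The smaller residual degrees of freedom of the index cycle term and its overlap with the letters limit that fit.

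No member called in letter A over B kept its call in every leave-one-out fit, while 16 of 18 did in A over C and Scd1 did in B over C. Members with an animal effect ranged from 8 to 20 over the leave-one-out fits and from 14 to 18 otherwise. For Sftpc, 18 members passed by Pearson's r, against 0 with letter means removed, 10 without the 2 farthest animals and 12 to 20 over the leave-one-out fits. Shares of all genes were not counted in the alternative fits of the animal effect or in the leave-one-out fits for Sftpc. The median r of sterol enzymes was 0.46 when columns were centred on their medians and 0.32 to 0.42 over the leave-one-out sets. That of fatty acid enzymes ran from 0.25 to 0.41 over those sets, and that between the lists from 0.25 to 0.35, with 0.14 when letter means were removed. The causes of these shifts were not tested. Depth limited no tested member, and Hmgcs1, listed at 0, could not be assessed.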
